A study of Mus musculus with 8 samples.

Results

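The genes described here encode ligands (Dll1, Jag1, Dner), receptors (Notch1, Notch2, Notch3) and direct target genes (Hes1, Hes5, Hey1, Hey2) of the Notch pathway, 10 genes chosen by symbol. Any row of the 4 deposited gene tables whose name, split at commas, carried 1 of these symbols was kept. Of the 10 genes, 7 were listed in at least 1 table, at 8 loci of the 11763 listed in all, because Notch1 had 2 loci. Hes5, Hey1 and Hey2 were listed in none, and 6 loci had a value in all 4 groups, against 7303 loci in all.

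RNA was taken from the cerebellum of male C57Bl/6 mice at postnatal day 40, and polyadenylated RNA was sequenced in 8 libraries. The groups were conditional knockout (cKO) runners, cKO sedentary mice, control runners and control sedentary mice, with 2 libraries each, and each library was a pool of 3 cerebella. The knockout is labelled Snf2h cKO-Nestin: Smarca5 encodes Snf2h, the motor subunit of ISWI chromatin remodelling complexes, and a Nestin driver acts in neural progenitors and their descendants, so that cells of other origin keep the gene. Runner and sedentary are the activity labels, voluntary running is named in the series title, and the alleles of the control mice are not given in the sources used here. The libraries of a group differ by a lane letter, but the labels do not say if a letter stands for another pool or another lane of the same pool, so that the spread behind a call may be technical.

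In Notch signalling, a Delta-like or Jagged ligand on one cell binds a Notch receptor on its neighbour, and the receptor is then cut by an ADAM protease and by gamma-secretase. The freed intracellular domain enters the nucleus, binds RBPJ with a Mastermind protein, and switches on Hes and Hey genes, which encode transcriptional repressors. In the cerebellum the pathway is known for its part in Bergmann glia, the radial astrocytes around Purkinje cells, and in granule neuron precursors; DNER, a transmembrane protein of Purkinje cells, has been described as a Notch ligand for Bergmann glia.

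Expression was given as FPKM, a fragment number scaled for transcript length and library size, with 1 value per group made by the authors from both libraries. No spread between libraries can therefore be printed beside a level, and the depth of each library is unknown. A gene was called higher or lower where the q of the authors' deposited table was below 0.05; absence from a table means that a gene was not called or not tested, not that its level stayed the same. Changes are log2 ratios of the group FPKM, each with a standard error (SE) taken as the deposited change divided by the deposited test statistic. Unless another q is given, the q of a called change in Dll1, Jag1, Dner, Notch1, Notch2 or Notch3 was 0.000167, the smallest in the authors' deposited tables. Smarca5 (XLOC_022608), the targeted gene, had 5.38 FPKM in cKO runners and 4.94 FPKM in cKO sedentary mice, against 12.96 FPKM in control runners and 12.6 FPKM in control sedentary mice. Its level in cKO cerebellum was thus 0.415-fold that of controls in runners and 0.393-fold in sedentary mice. In bulk cerebellum, fewer cells of a type and less RNA per cell cannot be told apart.

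The 6 ligand and receptor genes with a value in every group are all protein-coding, and their positions are from the GENCODE M21 annotation of GRCm38 (mm10). Dll1 lies at chr17:15367354-15376872, Jag1 at chr2:137081456-137116644, Dner at chr1:84369839-84696221, Notch1 at chr2:26457903-26516663 and Notch3 at chr17:32120820-32166852, all on the minus strand, and Notch2 lies at chr3:98013527-98150361 on the plus strand. Of the targets, Hes1 lies at chr16:30064384-30067796 and Hes5 at chr4:154960923-154962371 on the plus strand, and Hey1 at chr3:8663359-8667256 and Hey2 at chr10:30832359-30842801 on the minus strand.

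The 250 bases upstream of the annotated transcript start are shown for these 6 genes, since all of them were higher in cKO cerebellum in both genotype comparisons below. They are RefSeq sequences of GRCm38.p6, each 5′ to 3′ on the strand of its gene, with the letters CACGNG (N is any base; the site class bound by Hes and Hey repressors) in capitals on either strand. The windows are chr17:15376933-15377182 for Dll1, which has a further window at chr17:15375824-15376073, chr2:137116521-137116770 for Jag1, chr1:84696222-84696471 for Dner, chr2:26503823-26504072 for Notch1, chr3:98013288-98013537 for Notch2 and chr17:32166891-32167140 for Notch3.
Dll1: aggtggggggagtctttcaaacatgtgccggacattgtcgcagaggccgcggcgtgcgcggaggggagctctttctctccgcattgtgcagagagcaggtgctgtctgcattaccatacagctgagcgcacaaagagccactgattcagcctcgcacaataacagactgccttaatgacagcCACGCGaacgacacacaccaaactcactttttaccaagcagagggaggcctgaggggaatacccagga
Jag1: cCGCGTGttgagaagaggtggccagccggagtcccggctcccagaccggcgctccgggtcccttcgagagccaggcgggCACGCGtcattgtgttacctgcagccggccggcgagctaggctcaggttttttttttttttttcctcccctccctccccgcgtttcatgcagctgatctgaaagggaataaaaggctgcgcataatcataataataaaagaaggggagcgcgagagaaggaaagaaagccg
Dner: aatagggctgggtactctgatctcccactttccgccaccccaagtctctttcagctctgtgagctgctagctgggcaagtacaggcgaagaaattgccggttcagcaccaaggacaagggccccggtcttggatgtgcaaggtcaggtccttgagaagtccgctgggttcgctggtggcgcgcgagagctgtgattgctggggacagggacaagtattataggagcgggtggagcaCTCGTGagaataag
Notch1: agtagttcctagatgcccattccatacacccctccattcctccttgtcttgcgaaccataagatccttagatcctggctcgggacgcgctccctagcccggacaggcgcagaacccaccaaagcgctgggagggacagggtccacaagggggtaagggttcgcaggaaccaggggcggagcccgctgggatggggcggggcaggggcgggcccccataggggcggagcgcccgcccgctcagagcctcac
Notch2: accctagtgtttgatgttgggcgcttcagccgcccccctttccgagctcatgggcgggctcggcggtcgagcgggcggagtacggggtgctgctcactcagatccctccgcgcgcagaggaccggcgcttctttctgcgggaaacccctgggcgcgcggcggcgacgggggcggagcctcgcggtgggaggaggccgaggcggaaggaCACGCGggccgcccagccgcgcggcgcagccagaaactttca
Notch3: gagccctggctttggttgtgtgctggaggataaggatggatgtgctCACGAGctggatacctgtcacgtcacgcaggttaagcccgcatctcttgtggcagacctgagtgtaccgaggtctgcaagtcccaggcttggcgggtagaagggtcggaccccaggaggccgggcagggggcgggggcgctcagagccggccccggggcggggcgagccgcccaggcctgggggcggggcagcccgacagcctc
A CACGNG match stands 68 bases before the start of Dll1, at 249 and 171 bases before that of Jag1, at 14 before that of Dner, at 42 before that of Notch2 and at 204 before that of Notch3, while the Notch1 window holds none. Counting the further Dll1 window, 6 of 7 windows held it, against 23.5% of all 32851 promoter windows of this length and 41.5% of the 10708 windows with a like number of CpG dinucleotides (11 to 34). The N-box letters CACNAG, another sequence bound by Hes proteins, were in 4 of the 7 windows (Dner, Notch1, Notch2 and Notch3), against 36.7% of all windows and 34.0% of those of like CpG number. The match at 204 bases before Notch3 and that at 14 bases before Dner fit both sets of letters. The letters TGGGAA, the core of the RBPJ site, were in 0 of the 7 windows, against 21.6% of all windows and 17.9% of those of like CpG number. Among the target genes, the Hes5 window (chr4:154960673-154960922) held TGGGAA at 226 and 82 bases before the start and the Hey2 window (chr10:30842784-30843033) at 207 bases. Hes1 and Hey1 had no window. These matches describe letters in 250 bases and do not show that a factor binds there.

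**Figure D1:**
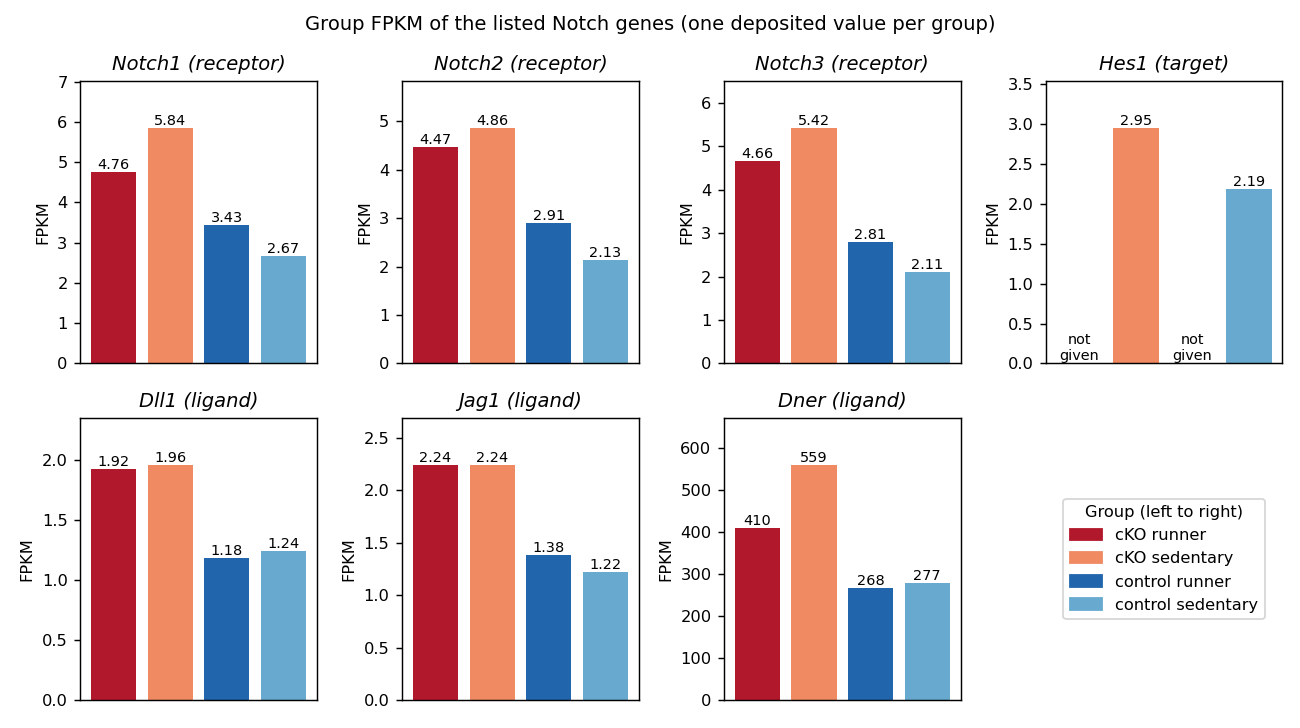
Group FPKM (vertical axes, linear and starting at 0) of the 7 listed Notch genes, 1 deposited value per group, with bars in the order cKO runner, cKO sedentary, control runner and control sedentary. Both cKO bars stand above both control bars for Dll1, Jag1, Dner, Notch1, Notch2 and Notch3; Hes1 has a value in the sedentary groups only.

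The first comparison asks how loss of Snf2h changed these genes in sedentary mice. All 3 ligands and all 3 receptors rose in cKO sedentary cerebellum, by between 1.58-fold (Dll1) and 2.57-fold (Notch3), and the 1 target gene listed, Hes1, was not called. Of the 8 Notch loci, 6 were called higher and 0 lower; over all 11763 loci, 38.4% were called higher and 44.2% lower. The median log2 ratio of the 7 loci with a value in both groups was 1.01, against -0.15 over all 10174 such loci. The plot of group FPKM shows these levels.

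Dner was by far the most abundant, since FPKM is scaled for transcript length and can be set side by side between genes. Dner (XLOC_000917) had 410.1 FPKM in cKO runners, 559 FPKM in cKO sedentary mice, 268 FPKM in control runners and 277 FPKM in control sedentary mice. It was highest in cKO sedentary cerebellum, and the 2 control groups lay close together. Between cKO sedentary and control sedentary mice the difference was 2.02-fold (log2 1.01, SE 0.0211). Dll1 (XLOC_009778), a Delta-like ligand, had 1.92 FPKM in cKO runners, 1.96 FPKM in cKO sedentary mice, 1.18 FPKM in control runners and 1.24 FPKM in control sedentary mice. Its levels fell into a cKO pair and a control pair, and neither running table listed it. The sedentary difference was 1.58-fold (log2 0.66, SE 0.252), with q = 0.000906 in the authors' deposited table. Jag1 (XLOC_013529), the ligand mutated in Alagille syndrome in humans, had 2.24 FPKM in both cKO runners and cKO sedentary mice, 1.38 FPKM in control runners and 1.22 FPKM in control sedentary mice. The cKO groups had the same level, neither running table listed the gene, and the sedentary difference was 1.84-fold (log2 0.88, SE 0.200).

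The receptors were all within a few FPKM of each other and shared 1 order of groups: cKO sedentary highest, then cKO runner, control runner and control sedentary. Neighbours in this order were called different for each receptor, except that Notch2 was not listed between the cKO groups. Notch1 (XLOC_012894) had 4.76 FPKM in cKO runners, 5.84 FPKM in cKO sedentary mice, 3.43 FPKM in control runners and 2.67 FPKM in control sedentary mice, a sedentary difference of 2.19-fold (log2 1.13, SE 0.0926). Notch2 (XLOC_014259), known for its role in granule neuron precursors, had 4.47 FPKM in cKO runners, 4.86 FPKM in cKO sedentary mice, 2.91 FPKM in control runners and 2.13 FPKM in control sedentary mice. Its sedentary difference was 2.29-fold (log2 1.19, SE 0.150). Notch3 (XLOC_009934), the receptor best known from vascular mural cells, had 4.66 FPKM in cKO runners, 5.42 FPKM in cKO sedentary mice, 2.81 FPKM in control runners and 2.11 FPKM in control sedentary mice. It showed the largest difference of the 6 genes, 2.57-fold (log2 1.36, SE 0.152). Placed among all loci, the log2 ratio of Notch3 was above that of 93.1% of them, that of Notch2 above 90.5%, that of Notch1 above 89.5%, that of Dner above 87.2%, that of Jag1 above 84.0% and that of Dll1 above 77.1%.

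Hes1 (XLOC_008466), the target gene that keeps neural progenitors from differentiating, had 2.95 FPKM in cKO sedentary mice and 2.19 FPKM in control sedentary mice, and no value was given for either runner group. The ratio was 1.35-fold (log2 0.43, SE 0.271), with p = 0.0328 and q = 0.0631 in the authors' deposited table, which misses the threshold. Hes5, Hey1 and Hey2 were listed in no table, so their levels are not analysed here.

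Transcript length moved with the direction of change in this comparison. Of called genes whose longest transcript exceeded 6000 bases, 65.4% were higher in cKO sedentary cerebellum, against 21.3% of those under 1000 bases. The receptors have long transcripts (9488 bases for Notch1, 10500 for Notch2 and 8016 for Notch3), and after centring on genes of like length their log2 ratios were 0.76, 0.82 and 1.07. The ligands, of 3581 bases for Dll1, 5612 for Jag1 and 3632 for Dner, had centred log2 ratios of 0.82, 0.63 and 1.17, and the short Hes1, of 1468 bases, had 0.88. Each of the 6 called genes thus stayed above genes of like length, with Dner rather than Notch3 the highest of them.

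**Figure D2:**
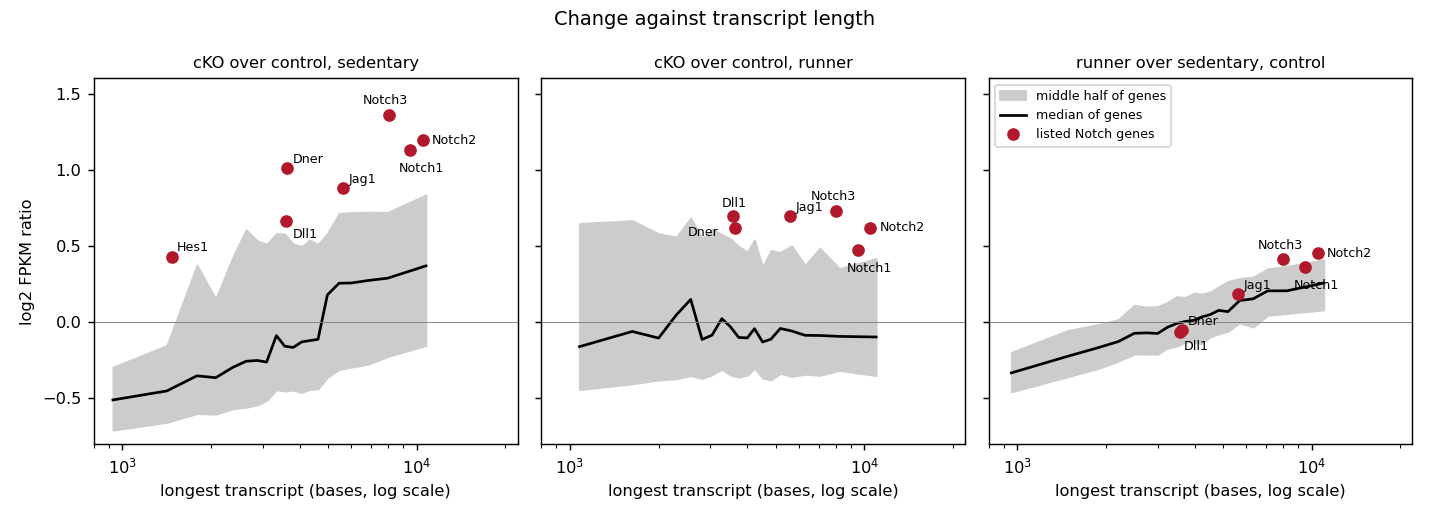
Log2 FPKM ratio (vertical axis) against the longest transcript in bases (horizontal axis, log scale) in 3 comparisons; the line is the median and the grey band the range between the quartiles of genes in 20 bins of length, and the points are the listed Notch genes. In both genotype comparisons the 6 ligand and receptor genes lie above the median line, whereas in control runners over control sedentary mice the line itself climbs with length and the receptors lie 0.10 (Notch1), 0.19 (Notch2) and 0.21 (Notch3) above it.

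The same genes were higher in cKO cerebellum when both genotypes ran, a comparison that shares no group with the sedentary one. All 3 ligands and all 3 receptors rose again in cKO runners, by between 1.39-fold (Notch1) and 1.66-fold (Notch3). Of the 8 loci, 6 were called higher and 0 lower, where 32.2% of all loci were called higher and 36.2% lower. The median log2 ratio of the 6 loci with a value in both groups was 0.66, against -0.08 over 8515 loci.

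Dll1 differed by 1.62-fold between cKO runners and control runners (log2 0.70, SE 0.173) and Jag1 by 1.62-fold (log2 0.69, SE 0.200). Dner differed by 1.53-fold (log2 0.62, SE 0.0223). The 3 ligands thus moved by nearly the same factor. Notch1 differed by 1.39-fold (log2 0.47, SE 0.0767), Notch2 by 1.54-fold (log2 0.62, SE 0.158) and Notch3 by 1.66-fold (log2 0.73, SE 0.142). The log2 ratios of the 6 genes were above those of 71.8% (Notch1) to 82.1% (Notch3) of all loci. Length had little bearing on direction here: 44.2% of called genes over 6000 bases and 45.8% of those under 1000 bases were higher in cKO runners. Centred on genes of like length, the log2 ratios were 0.73 for Dll1, 0.75 for Jag1, 0.72 for Dner, 0.57 for Notch1, 0.72 for Notch2 and 0.82 for Notch3. Hes1 was not listed.

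**Figure D3:**
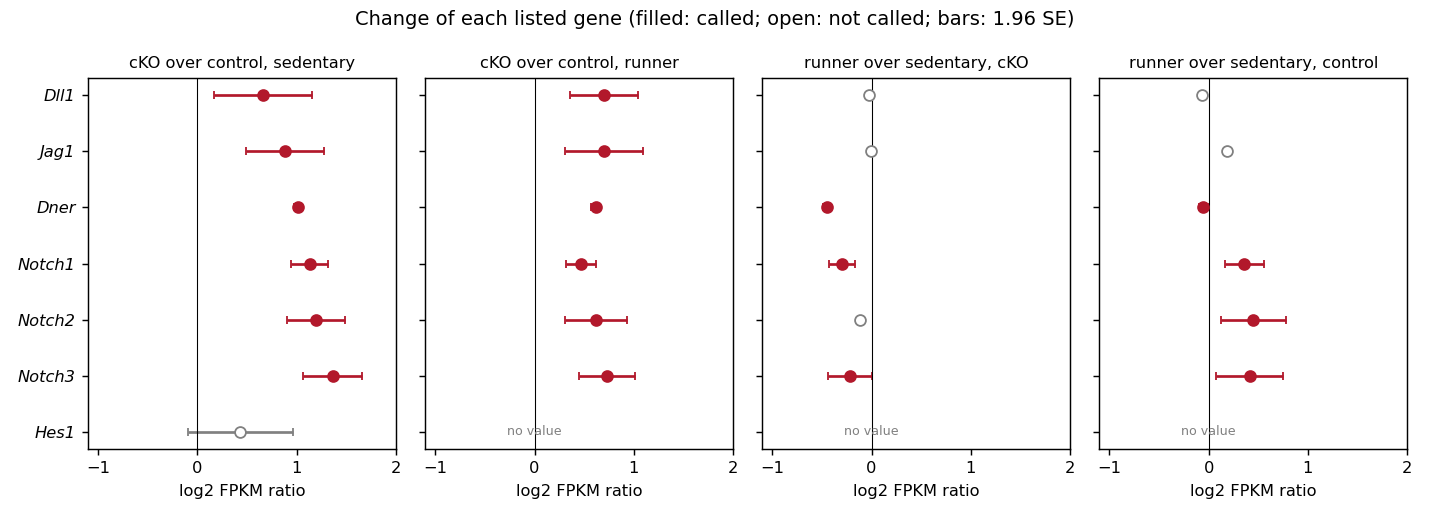
Log2 FPKM ratio (horizontal axes) of the 7 listed Notch genes in the 4 comparisons, with bars of 1.96 SE; filled points were called and open ones were not, and an open point with no bar was not listed in that table. The 6 ligand and receptor genes lie to the right of 0 in both genotype panels, and in the running panels the receptors lie left of 0 in cKO mice and right of 0 in control mice.

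Running was then compared with the sedentary state within each genotype. In cKO mice, Dner and 2 of the receptors fell in runners: Dner to 0.733-fold (log2 -0.45, SE 0.0212), Notch1 to 0.814-fold (log2 -0.30, SE 0.0673) and Notch3 to 0.860-fold (log2 -0.22, SE 0.114). For Notch3 the authors' deposited table gave p = 0.0103 and q = 0.0226. Of the 8 Notch loci, 0 were called higher and 3 lower, where 17.7% of all loci were called higher and 13.8% lower. Notch2 (0.919-fold), Dll1 (0.982-fold) and Jag1 (0.999-fold) were not listed. Each of these 6 changes was smaller in size than either genotype difference of the same gene, as the plot of log2 ratios shows. Centred on genes of like length, the log2 ratio was -0.51 for Dner, -0.21 for Notch1 and -0.19 for Notch3.

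In control mice the receptors rose in runners: Notch1 by 1.28-fold (log2 0.36, SE 0.0997), Notch2 by 1.37-fold (log2 0.45, SE 0.168) and Notch3 by 1.33-fold (log2 0.41, SE 0.174). For Notch3 the authors' deposited table gave q = 0.00577. Of the 8 loci, 4 were called higher and 1 lower, where 22.1% of all loci were called higher and 18.4% lower. The fourth was a second locus named Notch1 (XLOC_011902), listed in this table alone, with 0.806 FPKM in control runners and 0.292 FPKM in control sedentary mice (2.76-fold, SE of the log2 ratio 0.886), for which the authors' deposited table gave q = 0.0337. The files give no position for it, so which stretch of the gene it covers is not known. Dner was called lower at 0.965-fold (log2 -0.05, SE 0.0222), and Dll1 (0.957-fold) and Jag1 (1.14-fold) were not listed.

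Of the 4 comparisons, direction followed length most closely in this one: 87.6% of called genes over 6000 bases were higher in control runners, against 4.55% of those under 1000 bases. The median log2 ratio of genes over 6000 bases was 0.20. Centred on genes of like length, the log2 ratio was 0.10 for Notch1, 0.19 for Notch2 and 0.21 for Notch3 beside the SEs of 0.0997, 0.168 and 0.174 of the uncentred ratios. This comparison shares the control sedentary group with the sedentary genotype comparison, and each receptor was lowest in that group.

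Whether the genotype difference itself depended on running was tested as the log2 ratio of cKO over control in runners minus that in sedentary mice, with a two-sided z test and Benjamini-Hochberg adjustment over the 6751 genes listed in both genotype tables. The difference was smaller in runners for all 3 receptors and for Dner. With SEs from the authors' statistics it was -0.66 for Notch1 (SE 0.120, adjusted p = 4.84e-07), -0.63 for Notch3 (SE 0.208, adjusted p = 0.0112), -0.57 for Notch2 (SE 0.218, adjusted p = 0.0333) and -0.40 for Dner (SE 0.0307, adjusted p = 2.38e-36). On the same statistics of the authors it was -0.19 for Jag1 (SE 0.283, adjusted p = 0.740) and 0.04 for Dll1 (SE 0.306, adjusted p = 0.963), and whether these ligands differ from the receptors was not tested. Of the 6 genes, 4 passed in the lower direction, where 14.5% of the 6751 genes did and 28% passed in either direction. Centred on genes of like length, with the authors' statistics again, Notch1 (-0.37, adjusted p = 0.0108) and Dner (-0.44, adjusted p = 1.49e-43) still passed, while Notch3 (-0.44, adjusted p = 0.120) and Notch2 (-0.29, adjusted p = 0.421) did not; 24.3% of the genes with a length passed this test. With SEs taken instead from the deposited p, 0 of the 6 genes and 8.28% of all genes passed, since a p at the smallest value of 5e-05 gives no more than a lower limit to the statistic. The 2 running tables hold the same 4 groups and give the same differences and SEs, so they are no further check. Dner, Notch1 and Notch3 passed there, as did 66.9% of the 2078 genes they share. Those genes were all called for running in both genotypes, since the running tables list called genes only. The z test takes the SEs as known, although each rests on 2 libraries a group.

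The rest of the pathway was described with a list of 54 further genes, of which 44 loci were listed and Dlk2, Neurl1b, Dtx2, Psen2, Aph1a, Aph1b, Aph1c, Pofut1, Mfng and Maml2 were not. Their counts in cKO cerebellum lay near those over all loci, of which 38.4% were higher and 44.2% lower in sedentary mice, and 32.2% higher and 36.2% lower in runners. The counts by role below rest on 3 to 10 loci each and are a description beside the same shares. In sedentary mice 16 of the 44 were higher, 22 lower and 6 not called, with a median log2 ratio of -0.17, close to the -0.15 over all loci; centred on genes of like length, 19 were higher and 19 lower. In runners 14 were higher, 19 lower and 11 not called, with a median of -0.17.

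Among further ligands and receptors, Dlk1, a membrane protein related to Delta that is studied as a non-canonical ligand, showed the largest difference. It had 14.9 FPKM in cKO runners, 10.9 FPKM in cKO sedentary mice, 1.61 FPKM in control runners and 1.96 FPKM in control sedentary mice. The cKO level was 9.28-fold the control level in runners and 5.55-fold in sedentary mice. Jag2, the other Jagged ligand, was 1.88-fold higher in cKO sedentary mice, at 6.01 FPKM in cKO runners, 5.42 FPKM in cKO sedentary mice, 4.14 FPKM in control runners and 2.89 FPKM in control sedentary mice. A locus that joins Notch4 with Gpsm3, whose reads cannot be split between them, had 3.24 FPKM in cKO runners and 1.74 FPKM in control runners (1.86-fold). Cntn6, a contactin described as a Notch ligand, moved the other way, with 10.9 FPKM in cKO runners, 9.57 FPKM in cKO sedentary mice, 19.1 FPKM in control runners and 22.2 FPKM in control sedentary mice (0.431-fold in sedentary mice). In this group of 7 loci, 4 were higher and 2 lower in sedentary cKO mice, and 4 higher and 1 lower in cKO runners.

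Of the 6 listed loci for proteases that process the receptor, 5 were lower and 1 (Furin) higher in sedentary cKO mice, and 3 were lower and 0 higher in cKO runners. Adam10, the main ADAM protease of Notch, had 25.8 FPKM in cKO runners, 27.9 FPKM in cKO sedentary mice, 32.7 FPKM in control runners and 32.4 FPKM in control sedentary mice, and Ncstn, a subunit of gamma-secretase, had 22.5 FPKM in both cKO groups, 25.1 FPKM in control runners and 24.6 FPKM in control sedentary mice, with q = 0.00212 for Ncstn in sedentary mice in the authors' deposited table. These decreases were small; the largest in sedentary mice was that of Adam17 (0.795-fold). Of the 9 loci of the nuclear complex, 6 were lower and 2 higher in sedentary cKO mice, and 7 lower and 1 higher in cKO runners. Rbpj, the DNA-binding partner of the receptor's intracellular domain, had 10.1 FPKM in cKO sedentary mice and 11.3 FPKM in control sedentary mice, with q = 0.0569 in the authors' deposited table, and was not called. Maml3, a Mastermind coactivator, had 2.61 FPKM in cKO runners, 2.01 FPKM in cKO sedentary mice, 4.56 FPKM in control runners and 3.46 FPKM in control sedentary mice (0.571-fold in runners).

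Of 10 loci for ligand endocytosis and receptor turnover, 6 were lower and 3 higher in sedentary cKO mice, and 6 lower and 2 higher in cKO runners. Neurl1a, a Neuralized ubiquitin ligase, had 21.1 FPKM in cKO runners, 15.5 FPKM in cKO sedentary mice, 40.3 FPKM in control runners and 31.0 FPKM in control sedentary mice. Its cKO level was 0.523-fold the control level in runners and 0.502-fold in sedentary mice. Mib1, the ubiquitin ligase that most Delta and Jagged ligands need for signalling, differed in the other direction, at 15.7 FPKM in cKO sedentary mice and 10.8 FPKM in control sedentary mice. Of the 3 glycosyltransferase loci, 2 were lower and 0 higher in sedentary cKO mice, and 1 was lower and 0 higher in cKO runners.

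Target genes and their relatives, 9 loci other than the 4 Hes and Hey genes above, were mostly higher: 6 higher and 1 lower in sedentary cKO mice, and 7 higher and 1 lower in cKO runners. Hes3, a Hes gene known from Purkinje cells, had 26.4 FPKM in cKO runners, 41.2 FPKM in cKO sedentary mice, 12.7 FPKM in control runners and 15.9 FPKM in control sedentary mice, and was 2.08-fold higher in cKO runners and 2.59-fold higher in cKO sedentary mice. Heyl, the third Hey gene, had 1.38 FPKM in cKO runners, 1.76 FPKM in cKO sedentary mice, 0.945 FPKM in control runners and 1.32 FPKM in control sedentary mice. It was called higher in cKO runners (q = 0.00411) and in cKO sedentary mice (q = 0.0134) in the authors' deposited tables. Nrarp, a feedback inhibitor of Notch, had 2.32 FPKM in cKO runners, 1.65 FPKM in control runners and 2.45 FPKM in control sedentary mice, and was called higher in cKO runners with q = 0.0140 in the authors' deposited table. Hes6, which opposes Hes1, was the 1 gene of this group that fell, with 8.08 FPKM in cKO runners, 7.29 FPKM in cKO sedentary mice, 10.3 FPKM in control runners and 10.9 FPKM in control sedentary mice; in runners its q was 0.0174 in the authors' deposited table.

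**Figure D4:**
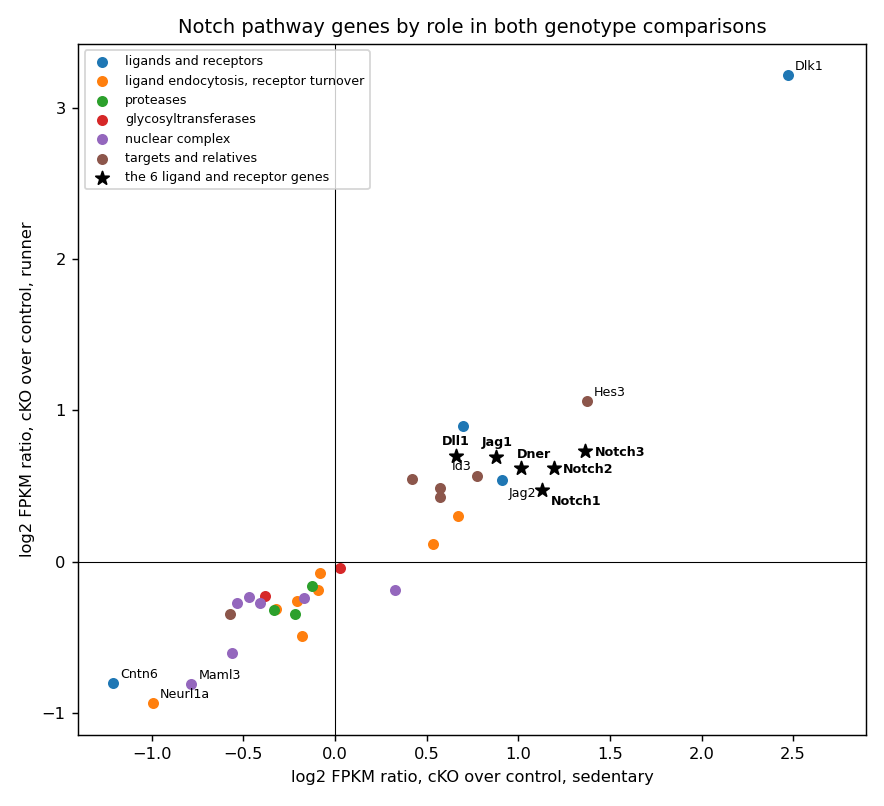
Log2 FPKM ratio of cKO over control in sedentary mice (horizontal axis) against that in runners (vertical axis) for Notch pathway loci with values in all 4 groups, coloured by role; stars are the 6 ligand and receptor genes. The stars lie together at the upper right, between 0.66 and 1.36 in sedentary mice and between 0.47 and 0.73 in runners, with Dlk1 beyond them. The 3 proteases shown and most of the nuclear complex shown lie below 0 on both axes. Furin, higher in sedentary cKO mice, has no value in cKO runners and is not shown.

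In the running comparisons, too, the counts are given beside the shares over all loci, which were lower there than for genotype. In cKO mice, 10 of the 44 loci were higher and 7 lower in runners, where 17.7% of all loci were higher and 13.8% lower, and 6 of the 9 nuclear complex loci were among those higher, with 0 lower. Among the genes called there were Hes3 (0.642-fold), Sox9 (0.741-fold), Dlk1 (1.37-fold), Neurl1a (1.36-fold), Maml3 (1.30-fold), Spen (1.16-fold), Adam10 (0.926-fold) and Mib1 (0.904-fold). In control mice, 14 were higher and 8 lower in runners, where 22.1% of all loci were higher and 18.4% lower. Those higher included the corepressor gene Spen (1.66-fold), Neurl1a (1.30-fold) and Numbl (1.27-fold), with Hes3 lower (0.798-fold). The nuclear complex had 4 loci higher and 2 lower in control runners. Of the 9 targets and relatives, 0 were higher in runners of either genotype, and 2 were lower in cKO mice and 4 in control mice.

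Markers of the cell types of the cerebellum moved with genotype as well, and their part in the Notch results was not tested. The marker counts, here and below, stand beside the shares over all loci. Of all loci, 38.4% were higher and 44.2% lower in cKO sedentary mice, and 32.2% and 36.2% in cKO runners. Between runners and sedentary mice, 17.7% were higher and 13.8% lower in cKO mice, and 22.1% and 18.4% in control mice. Sums and medians cover the loci with a value in both groups compared, and these loci differ between comparisons. For Purkinje cells, in which Dner is known, 11 of 13 marker loci were higher and 1 lower in cKO sedentary mice, with a median log2 ratio of 0.94 beside 1.01 for Dner. The summed level of the markers over 12 loci was 4788 FPKM in cKO sedentary mice against 3020.0 FPKM in control sedentary mice. Over 13 loci it was 3499.6 FPKM in cKO runners against 2676 FPKM in control runners. Of these 13 loci, 10 were higher and 0 lower in cKO runners, with a median of 0.39 beside 0.62 for Dner. In cKO runners over cKO sedentary mice, 0 of these markers were higher and 12 lower, with a median of -0.54 beside -0.45 for Dner. In control runners over control sedentary mice, 5 were higher and 5 lower, with a median of 0.12 beside -0.05 for Dner. Granule neuron markers were lower in cKO mice at 13 of 13 loci in both genotype comparisons. Their sum was 509 FPKM in cKO sedentary mice against 2092 FPKM in control sedentary mice. In cKO runners it was 789 FPKM against 2147 FPKM in control runners. With running, 13 of 13 granule neuron loci were higher in cKO mice, with a median log2 ratio of 0.66. In control mice 7 were higher and 2 lower in runners, with a median of 0.19. Gabra6, a granule neuron GABA receptor subunit, had 126 FPKM in cKO runners, 74.4 FPKM in cKO sedentary mice, 421 FPKM in control runners and 423 FPKM in control sedentary mice.

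Among glia, 10 of 16 Bergmann glia and astrocyte loci were higher and 5 lower in cKO sedentary mice, and 9 higher and 5 lower in cKO runners. Their summed level over 15 loci was 3273 FPKM in cKO sedentary mice against 2769 FPKM in control sedentary mice. Over 14 loci it was 2952 FPKM in cKO runners against 2553 FPKM in control runners. Much of both sums came from 1 locus that joins Aldoc with Pigs and Unc119, whose reads cannot be split. It had 1234 FPKM against 864 FPKM in sedentary mice, and 1175 FPKM against 846 FPKM in runners. Slc1a3, the next most abundant, was among those lower, at 0.733-fold in sedentary mice and 0.645-fold in runners. Oligodendrocyte precursor markers were higher in cKO mice at 9 of 9 loci in both comparisons, with medians of 0.72 in runners, where Dll1 had 0.70, and 0.73 in sedentary mice, where Dll1 had 0.66. Oligodendrocyte markers were higher at 8 of 9 loci and lower at 1 in both comparisons, and microglial markers higher at 7 of 8 in both. For endothelial and mural cells, 7 of 15 loci were higher and 2 lower in cKO sedentary mice, and 12 higher and 0 lower in cKO runners. Over 11 loci, cKO sedentary mice had 138 FPKM against 129 FPKM in control sedentary mice. Over 14 loci, cKO runners had 149 FPKM against 123 FPKM in control runners, so the 2 pairs of sums cover unlike sets. Over 11 loci with a value in both cKO groups, runners had 129 FPKM and sedentary mice 138 FPKM. The median log2 ratio of these markers was 0.46 in runners (14 loci), where Notch3 had 0.73. It was 0.38 in sedentary mice (11 loci), where Notch3 had 1.36.

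Markers of tissue next to the cerebellum stood apart too. Choroid plexus and ependyma markers were higher at 8 of 8 loci in cKO sedentary mice, with a median log2 ratio of 2.92, and at 5 of 8 in cKO runners, with 0.24; they were also higher at 8 of 8 in control runners over control sedentary mice. Hindbrain and midbrain neuron markers were higher at 12 of 14 loci in cKO sedentary mice (median 2.16) and at 14 of 14 in cKO runners (3.57). Markers of meninges and fibroblasts were higher at 8 of 8 and 7 of 8 loci. Within the cerebellum itself, markers of granule neuron precursors and proliferation were higher at 5 of 5 loci in cKO sedentary mice and 2 of 5 in cKO runners. In runners only those 2 loci had a value in both groups. The markers Atoh1, Mki67, Tagln and Aif1 were listed in no table, and no listed marker was at 0 FPKM in a group.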

How the data were processed

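Libraries were grouped by the genotype and activity labels, and the symbols and lists were chosen with earlier results of these data known. TopHat2 2.0.8b, TopHat, Cufflinks 2.1.1, Cuffdiff and mm10 stand in the submitters' processing notes, without their roles. The tables hold Cuffdiff output per the file headers, and the authors gave 1 FPKM for both libraries of a group. The 13151 FPKM values that 2 tables share were identical. The deposited log2 fold changes, per the file headers, are the second group over the first, and were recomputed here from the FPKM as cKO over control and runner over sedentary; for the Notch pathway genes both differed by at most 7.8e-06. The authors' test statistic was taken as a score, and the deposited p-value and q-value were used as they stand, with their names per the file headers. The highest q per table was 0.0631 (genotype, sedentary), 0.0530 (genotype, runners), 0.0264 (running, cKO) and 0.0343 (running, control), so the tables hold mainly called genes. How many genes the authors tested is not known here, and percentages of loci called are of the 11763 loci listed in any table.

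Scripts in Python 3.11.15 with pandas 2.3.3, numpy 2.4.6 and scipy 1.17.1 took the SE as fold change over statistic. Above the smallest p, the statistic was, in the median, 0.713 to 0.727 times the normal deviate that its p implies, so these SEs are wide relative to the deposited p. Transcript lengths came from GENCODE M21, and length centring subtracts the median of genes in 20 bins. Named without regard to rank were Smarca5 and the 10 Notch genes; of the 54 further pathway genes, up to 5 called ones per comparison with the smallest q and the largest change; the 3 genes of nearest profile per Notch gene; and 2 markers per cell type list. Adam10, Ncstn, Adam17, Furin, Rbpj, Mib1, Heyl, Nrarp and Hes6 were chosen after their values were seen, as examples of their groups. One gene that the rule would name is not reported here by name or value, though the counts include it. Other thresholds, fold filters, pseudocounts and centrings were tried.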

Additional observations from a re-analysis of the deposited data

Results flagged for a closer look

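For 4 of the 6 Notch ligand and receptor genes and for 2 further pathway genes, the genotype difference in runners was unlike that in sedentary mice by the test of the difference itself (two-sided z test, adjusted over 6751 genes), which is what brought them here. The log2 ratio of cKO over control in runners minus that in sedentary mice was -0.66 for Notch1, -0.63 for Notch3, -0.57 for Notch2 and -0.40 for Dner, with the adjusted p-values given above. Spen, a corepressor of RBPJ, had -0.52. Dlk1 moved the other way, by 0.74. On the authors' statistics the adjusted p was 0.000124 for Spen and 0.00693 for Dlk1. Of all genes tested, 28% passed, 13.5% higher and 14.5% lower. Centred on genes of like transcript length, Dlk1 (0.72) still passed, and Spen (-0.23) did not. With SEs from the deposited p the outcome was the other way round, with an adjusted p, on the authors' values, of 0.722 for Dlk1 and 4.29e-06 for Spen. Spen was, like the receptors, lowest in control sedentary mice, at 4.67 FPKM.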

How the results depend on the processing

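None of the 104 values of the Notch genes' log2 ratios under 2 pseudocounts (0.1 and 1) and 2 centrings (all genes, genes of like length) reversed a called direction; 54 moved by no more than the SE, and 50 moved by more or had no SE. The counts of 6 higher and 0 lower in both genotype comparisons stayed within 1.5 times under every threshold, filter and centring tried. The running counts did not: with at least 1.5-fold required, 0 Notch loci were lower in cKO runners, and 1 was higher and 0 lower in control runners. With only the smallest q accepted, 2 were higher in control runners, and with at least 1.2-fold, a filter chosen after seeing the data because calls were made at changes as small as that of Dner (0.965-fold), 0 were lower there. The same 1.2-fold filter left 13 lower pathway loci in the sedentary genotype comparison, 11 lower in the runner one, 5 higher and 3 lower in cKO runners, and 9 higher and 5 lower in control runners; these follow from the filter's own construction. Of the 4 Notch genes that passed the z test with SEs from the authors' statistics, 0 passed with SEs from the deposited p (8.28% of all genes did). With length centring, also chosen after seeing the data, 2 passed (24.3% of all genes). The 2 running tables hold the same 4 groups and repeat the same z test, so their outcome is no separate support. There Dner, Notch1 and Notch3 passed with the authors' statistics (the highest adjusted p was 0.00426). Notch2 was not in both. No paired analysis was possible because the tables give 1 value per group; for the same reason leaving out each library was not run. Depth per library is unknown, so the low levels of Dll1 and Jag1, near 1 to 2 FPKM, carry no counting interval.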

Other observations

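The genes whose FPKM profile over the 4 groups lay nearest to each Notch gene were sought among 5831 genes with at least 1 FPKM in every group, by the Euclidean distance between log2 profiles centred on their own mean. With 4 points per profile, nearness describes these group values and nothing more. Dll1 was nearest to Pdgfra, the receptor that marks oligodendrocyte precursors (distance 0.0340), Lrfn5 (0.0405) and Pdgfc (0.0412). Pdgfra had 9.74 FPKM in cKO runners, 9.93 FPKM in cKO sedentary mice, 5.90 FPKM in control runners and 6.37 FPKM in control sedentary mice. Jag1 was nearest to Cyp1b1 (0.0161), Ezr (0.0170) and Ptrf (0.0499). Ezr, which encodes ezrin, a linker of membrane and actin, had 17.2 FPKM in cKO runners, 17.1 FPKM in cKO sedentary mice, 10.4 FPKM in control runners and 9.23 FPKM in control sedentary mice.

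Dner was nearest to Col3a1 (0.0537), Agtrap (0.0541) and Adamts3 (0.0711), although the first of these is a collagen gene of fibroblasts. Notch1 was nearest to Arhgap31 (0.0157), Dagla (0.0319) and Sh3d19 (0.0334). Dagla, which makes the endocannabinoid 2-arachidonoylglycerol, had 39.1 FPKM in cKO runners, 47.2 FPKM in cKO sedentary mice, 28.2 FPKM in control runners and 21.4 FPKM in control sedentary mice. Notch2 was nearest to Iqsec3 (0.0196), Nrp2 (0.0406) and Slc1a2 (0.0490). Slc1a2, the main glutamate transporter of astrocytes, had 108 FPKM in cKO runners, 119.6 FPKM in cKO sedentary mice, 69.1 FPKM in control runners and 52.9 FPKM in control sedentary mice. Notch3 was nearest to Pfkfb3 (0.0603), Sdc3 (0.0625) and Foxp4 (0.0788).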
